A study of Stropharia rugosoannulata with 3 samples.

Results

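The 200 gene models described here have the largest lengths, as the deposited tables show length, among the models of *S. rugosoannulata* that were well covered by reads in the mycelium. The tables hold no length column. Length was therefore read from the ratio of a model's count to its FPKM (fragments scaled to the length of the model and the total of the library), since this ratio rises in proportion to the length by which the count was divided. Of 11750 gene models, 8286 had at least 200 counts in each of 3 libraries and are called eligible below. The 200 with the highest mean ratio were taken from these, with SRUG_03252, a model of 7329 nt, left out by rule. They made up 1.70% of all models and 2.41% of the eligible ones. The members were thus selected on measured values, the count and the FPKM of every library, so that their length and any value tied to it are given as a description and carry no test.

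RNA was sequenced from mycelia grown on potato dextrose agar (PDA) plates at 25 °C, without a treatment. The sample titles name S68, a monokaryon, that is a strain whose cells carry nuclei of a single parental type, whereas the strain label names the cultivar Heinong No.1, from which S68 was derived. All 3 libraries belong to this 1 condition and are numbered 1 to 3 here, and whether they came from separate cultures is not given in the labels, so that the spread between them may be technical. The counts summed to between 29678333 and 31831513 per library. The mycelium label was not checked against markers, since few models have a name here.

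In fungi, very long gene models tend to encode large proteins with several domains, such as synthases that build a product on repeated modules, transporters, motor and scaffold proteins and regulators of membrane traffic, although neighbouring genes that were merged in prediction also give a long model. A long transcript yields more fragments than a short one present in the same number of copies. Counts divided by the library total (CPM) keep this effect and FPKM divides it out, so that the same model can rank high by the one and low by the other. A predicted role is given here for 1 of these 200 models only, and the others are given by their identifiers.

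The ratio could be turned into bases. In each library the ratios of the 400 models with the highest counts were whole multiples of a common step, with 97.5%, 95.5% and 95.5% of them within 0.1 of a whole number, and 1 step was taken as 1 nt. Members were 4524 to 15106 nt long, with a median of 5359 nt and quartiles of 4792 and 6293 nt. The median over all eligible models was 1345 nt. For members the length differed between libraries by an SD with a median of 0.316 nt and a maximum of 6.36 nt. Of the 1000 models with the highest counts, 332 (33.2%) had a length divisible by 3, so that the length used for the FPKM was not the coding length alone. It is the length of the model as counted, and exons and positions in bases were not used here.

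Most members lay close to the lower limit of length. There were 71 members below 5000 nt, 66 from 5000 to below 6000 nt, 35 from 6000 to below 7000 nt, 22 from 7000 to below 10000 nt and 6 of 10000 nt or more. The last ones inside the threshold were SRUG_01991 (4532 nt), SRUG_01737 (4527 nt) and SRUG_00509 (4524 nt), and the first ones outside were SRUG_03115 (4516 nt), SRUG_02834 (4509 nt) and SRUG_06000 (4505 nt). No gap in length separated the members from the models that follow. The requirement of 200 counts in every library left out 5 models with at least 10 counts in each that would have been long enough, with lengths of 4639 to 6666 nt and mean FPKM of 0.188 to 2.42.

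By FPKM the longest models stood at the middle of the transcriptome. Their mean FPKM had a median of 22.4 (quartiles 13.0 and 44.2, range 2.34 to 391), beside 23.9 over all models and 40.7 over the eligible ones. By library, the median of the members was 20.9, 25.2 and 22.0, or 22.7 ± 2.22 (SD, n = 3). The median of the eligible models was 37.7, 41.9 and 40.2, and that of all models 21.0, 25.4 and 23.8, in the same order. Members were below the eligible models in every library by far more than libraries differed, while their distance to the median of all models, below it in each library, was under the spread between libraries. In all, 97 of the 200 were above the median of all models, compared with 70.4% of the eligible models. The comparison with all models is uneven, because the members had to pass a minimum count and the other models did not.

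The lower level was graded with length. When the eligible models were split into 10 groups of equal size by length, the median FPKM was 101 in the shortest group (152 to 566 nt), 61.2 in the next, 40.6 in the fifth and 27.9 in the eighth (1757 to 2132 nt). It was 31.1 and 29.0 in the last 2, so that these medians were not below that of the eighth group. The 200 members, which are the upper end of the last group, were below it at 22.4, and the 200 models that follow them in length (3683 to 4516 nt) had a median of 29.3 with 122 above the median of all models. Within the members, the median FPKM was 25.8 below 5000 nt, 31.8 from 5000 to below 6000 nt, 15.5 from 6000 to below 7000 nt, 13.5 from 7000 to below 10000 nt and 10.1 from 10000 nt. The level thus dropped at about 6000 nt rather than evenly along the range, and only 3 of the 28 members of 7000 nt or more were above the median of all models.

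Part of this order is set by the minimum count. A model reached 200 counts at an FPKM of 1.14 among the members (median) but needed 14.0 in the shortest group, so that short models with low FPKM could not be eligible. At a common floor of 15.6 FPKM in every library, which 6374 models including 122 members passed, the median was 36.6 in the members and 55.7 in the others. Under this floor the shortest group still had 104. The eighth, ninth and longest groups had 44.6, 42.9 and 41.4, so that here the median went on falling to the longest group. Spearman's rho between length and mean FPKM was −0.30 over the 200 members, −0.36 over the eligible models and −0.29 over those above the floor. These correlations are across models within the same 3 libraries, and both quantities contain the FPKM.

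**Figure D1:**
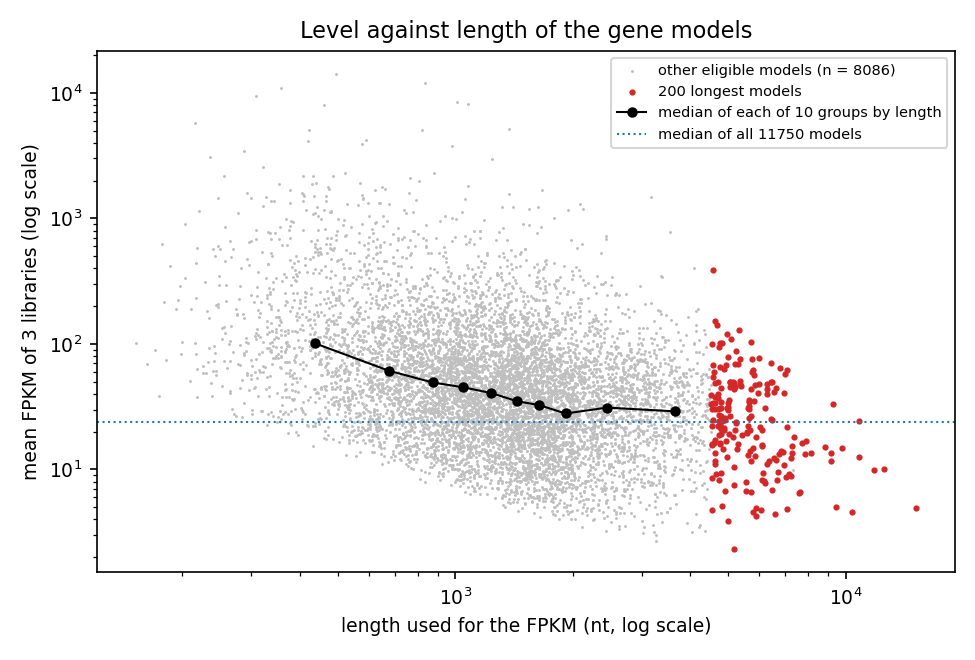
Mean FPKM over 3 libraries (vertical, log scale) against the length used for the FPKM in nt (horizontal, log scale) for 8286 eligible models. Red points are the 200 longest, grey points the others, black points the median of each of 10 groups by length, falling from 101 to 29.0, and the dotted line the median of all models at 23.9. The slanted lower edge of the grey points is the minimum of 200 counts.

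By CPM, which does not divide by length, the same models ranked higher. The median member stood at percentile 84.6 of all models by mean CPM (normalized by TMM, the trimmed mean of M-values) and at percentile 48.5 by mean FPKM. The CPM percentile was the higher in 200 of 200 members, by 2.63 to 51.8 points with a median of 31.1, and since the members were chosen by length this direction was set by the choice. Of the 103 members under the median FPKM, 94 were above the median CPM. By FPKM 3 members were in the top 10% of all models and 26 in the top 25%, and by CPM these numbers were 68 and 146. Members held 3.84%, 4.12% and 3.72% of all counts in libraries 1 to 3 (3.89 ± 0.206%, SD, n = 3) and 0.763%, 0.810% and 0.727% of the summed FPKM (0.767 ± 0.0415%). A set that is 1.70% of the models was thus above its share by counts and below it by FPKM.

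The size of the shift depended on the level as well as on length. SRUG_02399, already at percentile 97.2 by FPKM, moved by only 2.63 points to 99.8. The longest model SRUG_07418 moved from percentile 25.1 to 72.9 at a mean FPKM of 4.96. Only 9 members were below the median CPM, all of them with a mean FPKM under 5.15, and the lowest was SRUG_04733 at percentile 33.3 by CPM and 20.1 by FPKM.

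**Figure D2:**
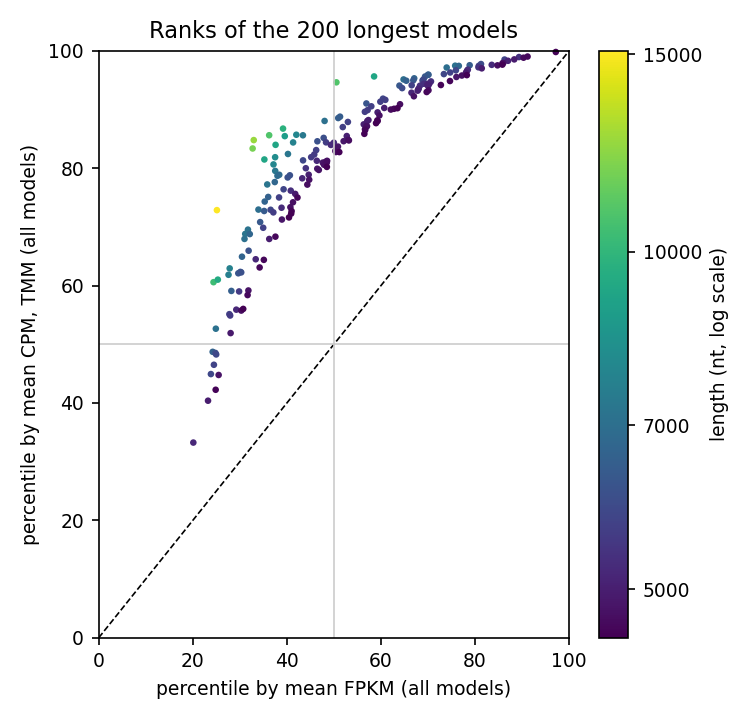
Percentile among 11750 models by mean CPM (vertical) against that by mean FPKM (horizontal) for the 200 longest models, coloured by length in nt on a log scale. The points lie above the dashed line of equal rank, with a median of 84.6 by CPM and 48.5 by FPKM, and the points farthest above it are mostly those of 7000 nt and more.

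The 10 longest models came from 8 contigs and were expressed at low to middle levels. SRUG_07418, on contig 8 as model 362, was the longest at 15106 nt. It had 1680, 3752 and 1939 counts in libraries 1 to 3, which gave FPKM values of 3.25, 7.60 and 4.02. Library 2 was high and libraries 1 and 3 were alike, a pattern that returns in many members. SRUG_09639 (12552 nt, contig 11) had FPKM values of 10.8, 10.3 and 9.29, and its libraries were alike. SRUG_04336 (11796 nt, contig 4) had 9.89, 12.9 and 7.22, with library 3 the lowest, and was the only member lowered in library 3 alone. SRUG_05483 (10828 nt, contig 5) had 8.87, 17.3 and 11.4, again highest in library 2. SRUG_00670 (10816 nt, contig 1) was close to it in length but higher, at 26.4, 27.7 and 18.9.

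The sixth in length, SRUG_01876 (10347 nt, contig 2), was also among the 5 lowest members, with FPKM values of 2.87, 7.45 and 3.38. SRUG_00635 (9755 nt, contig 1) had 12.0, 17.4 and 14.7, and SRUG_08623 (9413 nt, contig 10) had 4.05, 6.38 and 4.75. The highest of the 10 was SRUG_02088 (9248 nt, contig 2), with 28.5, 37.2 and 33.3, followed in length by SRUG_03520 (9190 nt, contig 3) with 10.2, 13.9 and 11.2. Of these 10 models, 2 were above the median FPKM of all models, SRUG_00670 and SRUG_02088, and the FPKM was highest in library 2 for 9. After TMM normalization library 2 was highest for 8.

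**Figure D3:**
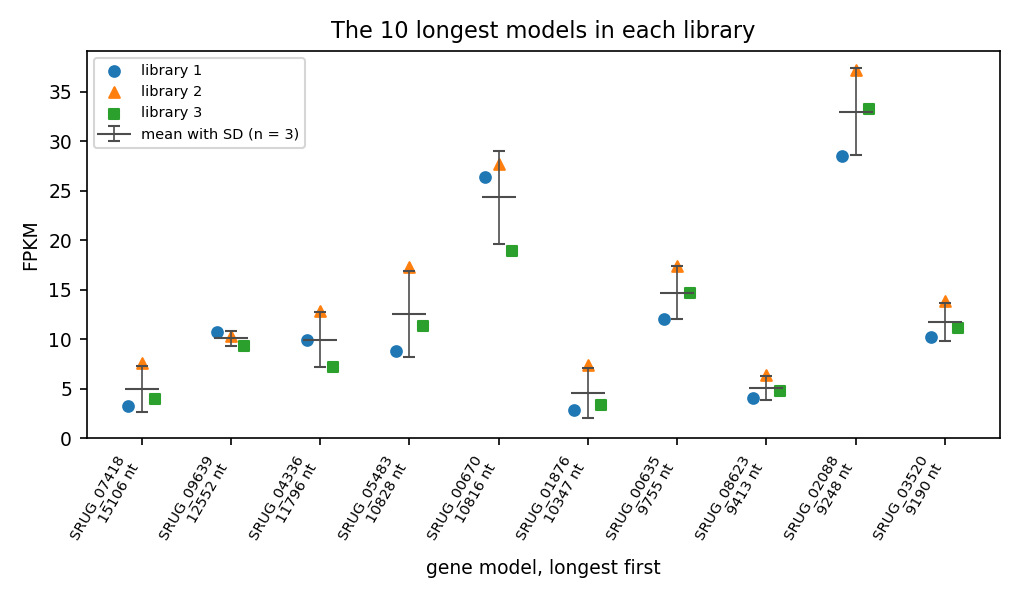
FPKM (vertical, from 0) of the 10 longest models, ordered by length, in library 1 (circles), library 2 (triangles) and library 3 (squares), with the mean and SD over the 3 libraries. The triangle is the highest mark in every model except SRUG_09639, and the means run from 4.56 (SRUG_01876) to 33.0 (SRUG_02088).

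The members with the highest FPKM were all 5336 nt or shorter. SRUG_02399 (4560 nt, contig 2, model 1096) had 95684, 39237 and 43062 counts and FPKM values of 613, 263 and 296 (391 ± 193, SD, n = 3). It was the highest member in every library and was raised in library 1. It lies 3 models from SRUG_02402, a core gene of a siderophore cluster, siderophores being compounds that bind iron. SRUG_02402 had 3.30, 11.6 and 6.26 and was thus low, and highest in library 2. SRUG_09263 (4632 nt, contig 11, model 2) had 188, 49.8 and 218, so that library 2 stood far below both others. SRUG_07653 (4675 nt, contig 8) had 134, 190 and 98.8, with library 2 the highest. SRUG_09530 (5336 nt, contig 11) had 149, 115 and 120, and SRUG_06660 (4969 nt, contig 7) had 134, 87.3 and 138. Of these 5, only SRUG_07653 was highest in library 2.

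The members with the lowest FPKM showed the opposite order of libraries, apart from the lowest of all. SRUG_04733 (5176 nt, contig 4) had 432, 371 and 394 counts and FPKM values of 2.44, 2.19 and 2.38, close to each other and lowest in library 2. SRUG_08820 (4988 nt, contig 10) had 2.45, 5.95 and 3.37. SRUG_07674 (5872 nt, contig 8) had 1.78, 7.19 and 3.87, and SRUG_05943 (6573 nt, contig 6) had 3.14, 7.02 and 3.17. With SRUG_01876, given above, 4 of the 5 lowest members were highest in library 2.

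SRUG_05169 is the only member that the text of the study names with a function. The paper assigns it by sequence similarity to the cytochrome P450 family CYP504 and describes it as oxidizing phenylacetate, a step in the breakdown of this aromatic acid. This role is a prediction, and whether the model joins more than 1 gene was not examined. It lies on contig 5 as model 444 and is 5170 nt long by the ratio. Its counts were 1000, 1899 and 930, and its FPKM 5.65, 11.2 and 5.63 (7.51 ± 3.23, SD, n = 3), so that library 2 was high and libraries 1 and 3 were nearly equal. It stood at percentile 29.3 by FPKM and 55.9 by CPM.

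The spread between libraries was, for the typical member, a little smaller than for other models. The coefficient of variation (CV, SD over mean) of TMM-normalized CPM over the 3 libraries had a median of 0.146 in the members, with quartiles of 0.0843 and 0.256, and of 0.174 in the eligible models. In 77 of the 200 members the highest library exceeded the lowest by less than 25%, compared with 29.2% of the eligible models. Counting error was small beside this, at a CV of 0.0220 for the median member and 0.0708 for the one with the fewest counts, taking 2 counts as 1 fragment and covering counting only. Library 2 had the largest part in the spread, since without it the median CV was 0.0982 in members and 0.124 in eligible models. Without library 1 it was 0.118 and 0.134, and without library 3 it was 0.152 and 0.174.

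At equal counts, low and high members differed from other models in opposite ways. When the eligible models were split into 5 groups of equal size by mean count, the 3 members in the lowest group had a median CV of 0.418 (others 0.204), the 13 in the next 0.390 (0.170) and the 26 in the middle group 0.240 (0.157). The 68 members in the next group, with 0.143, were close to the others at 0.152. The 90 members in the highest group had 0.126, below the others at 0.197. At a given count a long model has a lower FPKM than a short one, so these groups differ in FPKM as well.

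The steadiest members had a mean FPKM between 21.6 and 55.0. SRUG_10656 (4568 nt, contig 14) had a CV of 0.0102, with FPKM values of 50.9, 57.0 and 57.0, whose remaining difference follows the normalization of the libraries. SRUG_00962 (4867 nt, contig 1), SRUG_05242 (5007 nt, contig 5), SRUG_08178 (4563 nt, contig 9) and SRUG_06943 (5157 nt, contig 7) had CVs of 0.0120, 0.0130, 0.0139 and 0.0168, at a mean FPKM of 21.6, 35.6, 33.8 and 45.6. These values lie below the counting error of the median member, and such a small spread over 3 libraries is found by choosing the lowest of 200.

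The most variable members were those in which library 2 stood apart, with the exception of SRUG_02399. SRUG_01911 (4728 nt, contig 2) had the highest CV, 0.704, with 594, 2343 and 888 counts and FPKM values of 3.67, 15.2 and 5.88. SRUG_07674 followed at 0.601, SRUG_09263 at 0.598, SRUG_07192 (4791 nt, contig 8) at 0.590 and SRUG_02399 at 0.560. Library 2 was the highest in SRUG_01911, SRUG_07674 and SRUG_07192 and the lowest in SRUG_09263.

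Library 2 gave the largest departure of the whole set. The CPM was highest in library 2 in 124 of the 200 members, compared with 37.1% of the eligible models, and highest in library 1 in 59 (eligible 37.1%) and in library 3 in 17 (eligible 25.9%). The CPM in library 2 over the mean of libraries 1 and 3 had a median of 1.12 in the members and 0.980 in the eligible models. From library 1 to library 2 the median log2 change of the members was 0.15, with 135 of 200 up (eligible 48.5%), and from library 2 to library 3 it was −0.20, with 42 up (eligible 49.9%). From library 1 to library 3 it was −0.03, with 89 up (eligible 49.0%). Regardless of direction, the median size of the log2 change in members was 0.31 from library 1 to 2, 0.24 from 2 to 3 and 0.20 from 1 to 3. Most members thus moved in the same direction between library 2 and the others. Between libraries 1 and 3, members moved in both directions.

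Single-library calls gave the same order. A model was called raised in a library alone when its CPM there was at least 1.5 times that in each of the others, and lowered when each of the others was at least 1.5 times as high. In library 2, 30 members (15%) were raised, beside 6.77% of the eligible models, and 3 (1.5%) were lowered, beside 5.47%. In library 1, 3 were raised (eligible 5.5%) and 8 were lowered (eligible 3.07%), and in library 3 1 was raised (eligible 2.12%) and 1 was lowered (eligible 1.58%). With 1 condition and no group to set library 2 against, these are differences between libraries, and whether they come from the mycelium or from the preparation of the library cannot be told apart. In bulk RNA, fewer cells in a given state and less RNA per cell cannot be told apart either.

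The ratio of library 2 was higher in longer eligible models, though not in every step. Its median was 0.897 in the shortest of the 10 groups by length, 0.993 in the fifth, 0.967 in the sixth, 0.990 in the seventh, 1.03 in the ninth and 1.08 in the longest. The 200 models that follow the members in length had 1.06, with 17 raised in library 2 and 98 highest there. The members, at 1.12, continued this order. Under other scalings of the libraries the median was 1.12 with DESeq2 size factors and 1.19 both from the deposited FPKM and from counts divided by the library total. The median of the eligible models moved as well, from 0.980 to 1.04 in the last of these. The members stood at 1.14 times that median under each scaling. A scaling changes the ratio by nearly the same factor in every model, so this constancy was set in advance.

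Within the members the departure of library 2 was concentrated at low FPKM. When the members were split at their quartiles of FPKM, the median ratio in the group with the lowest FPKM (2.34 to 12.7) was 1.52, library 2 was highest in 45 of 50, and 21 were raised there. The next group (13.2 to 22.4) had a ratio of 1.12 with 35 highest in library 2 and 4 raised, and the third (22.4 to 44.1) had 1.08 with 27 and 3. In the highest group (44.3 to 391) the ratio was 0.946, and library 2 was highest in 17 and lowest in 17. Spearman's rho between mean FPKM and the ratio was −0.56 over the 200 members and −0.25 over the eligible models. The CV was also largest in the lowest group, with a median of 0.278, but it did not fall throughout, with 0.109, 0.105 and 0.142 in the others. Other eligible models in the same ranges of FPKM had 0.211, 0.180, 0.151 and 0.180. Members were thus more variable than these in the lowest group only. Without library 2 the CV of the lowest group of members was 0.157.

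**Figure D4:**
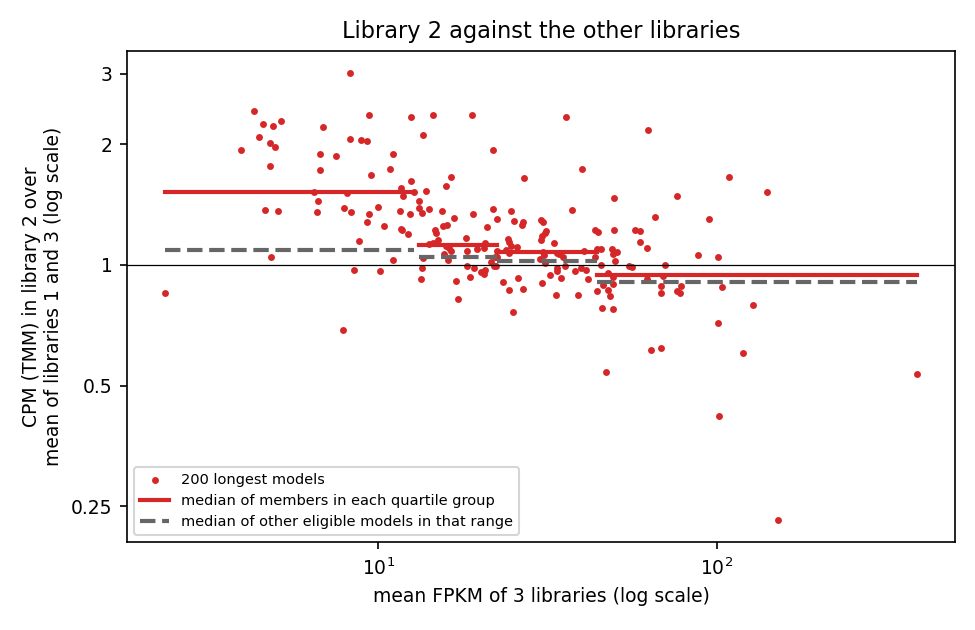
CPM in library 2 over the mean of libraries 1 and 3 (vertical, log scale) against mean FPKM (horizontal, log scale) for the 200 longest models (red points). Red lines give the median of the members in each quartile group by FPKM, falling from 1.52 to 0.946, and dashed grey lines the median of the other eligible models in the same range of FPKM, from 1.09 to 0.906.

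The group with the lowest FPKM can be set beside other models of its level. Among the 920 other eligible models in the same range of FPKM the median ratio was 1.09, and 114 of them (12.4%) were raised in library 2, beside 42.0% of the members. In the higher groups the members and the other models were close, with 8% beside 9.29%, 6% beside 5.92% and 4% beside 4.62% raised. Split by length, the other models in the lowest range of FPKM were raised in library 2 in 4.29% of 70 models under 1000 nt, 10.1% of 544 from 1000 to 2000 nt, 13.6% of 199 up to 3000 nt, 25.3% of 83 up to 4000 nt and 33.3% of 24 above this. The share thus went up with length at low FPKM. At high FPKM, in the range of the highest group of members, it was 4.01%, 4.59%, 5.38%, 3.29% and 0% over the same classes of length, and the share did not go up with length. The median ratio of these classes did go up, from 0.884 to 0.914, 0.926, 0.939 and 0.960, and stayed below 1. The class under 1000 nt at low FPKM holds only models near the minimum count. With a minimum of 10 counts in place of 200 it had 578 models, of which 15.1% were raised, and the class above 4000 nt had 26, of which 38.5% were raised. RNA quality was not given for the libraries, and its part in these differences was not tested.

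The 5 members raised most in library 2 were SRUG_01911, SRUG_07674, SRUG_11201, SRUG_11025 and SRUG_07192, at 3.01, 2.43, 2.37, 2.36 and 2.36 times the mean of the other libraries. SRUG_11201 (4731 nt, contig 16) had FPKM values of 11.3, 31.6 and 13.9. SRUG_11025 (5256 nt, contig 15) had 8.44, 24.1 and 10.9, and SRUG_07192 had 3.86, 15.5 and 8.70. In SRUG_07192 and SRUG_07674 library 1 was also below library 3 by more than 1.5 times, whereas in SRUG_11201 and SRUG_11025 libraries 1 and 3 were close. SRUG_05169, the CYP504, was at 1.87 times and was among the 30 raised members.

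The 5 members lowered most in library 2 were SRUG_09263, SRUG_08536, SRUG_02399, SRUG_06173 and SRUG_06660, at 0.231, 0.419, 0.534, 0.539 and 0.602 times. SRUG_08536 (4830 nt, contig 10) had FPKM values of 98.5, 55.2 and 151. SRUG_06173 (5859 nt, contig 6) had 37.3, 31.2 and 73.0, so that library 3 was the high one, and it was the only member raised in library 3 alone. All 5 had a mean FPKM above 47, and 3 of the 5 had passed the call of lowered in library 2 alone, namely SRUG_09263, SRUG_08536 and SRUG_06660.

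The members were found on 18 of the 21 contigs, with none on contigs 19, 20 and 21, which together hold few eligible models. Relative to the number of models, contig 10 had the most, 21 of 745 or 2.82 per 100, followed by contig 18 with 2.58 (4 members), contig 15 with 2.56 (6), contig 11 with 2.45 (15), contig 14 with 2.44 (6) and contig 8 with 2.31 (20). Contig 13 had the fewest of the contigs with members, 3 of 333 or 0.901 per 100. As a share of the eligible models, members made up 5.56% on contig 15 and 4.02% on contig 11. Contigs with few members differ by a handful of models, and no test of placement was made.

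**Figure D5:**
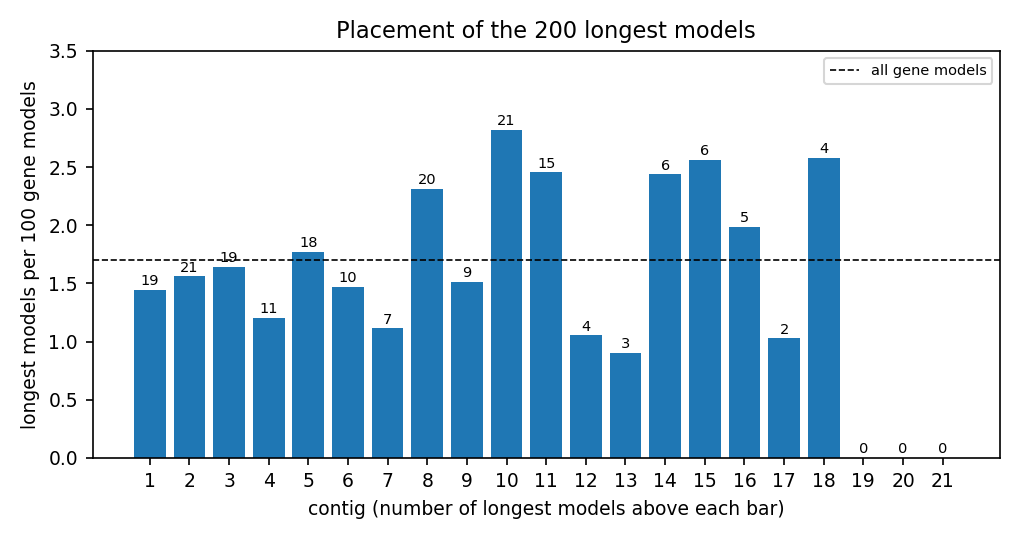
Longest models per 100 gene models (vertical, from 0) on each of 21 contigs (horizontal), with the number of members above each bar and a dashed line at 1.70 per 100, the value over all models. Contig 10 is highest at 2.82, and contigs 19, 20 and 21 have none.

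The level of the members differed between contigs. Among contigs with at least 10 members, the median FPKM was highest on contig 11 (39.7) and contig 3 (37.3) and lowest on contig 8 (16.7) and contig 1 (18.3). Contig 11 was the only one of these on which the median of members exceeded that of the eligible models (36.8). Members raised in library 2 came from 13 contigs, with 5 of 21 on contig 10, 4 of 20 on contig 8, 4 of 21 on contig 2, 3 of 10 on contig 6 and 3 of 5 on contig 16. The share of eligible models raised in library 2 on these contigs was 7.24%, 6.55%, 6.18%, 9.03% and 11.8%, in the same order. Over all contigs, 16 and 6 had the highest shares of eligible models raised, and these shares include the members. Contig 14 had 2 of 6 members raised, with 7.36% of its eligible models raised. Contig 1 had none among 19 members, and 6.30% of its eligible models were raised.

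Most members had other models between them. A set of 1.70% of all models is thinly spread in any case, and the spacing of other sets of this size was not computed. Along a contig, the median distance from a member to the next was 34.5 models, and 15 of 182 such distances were 5 models or fewer. Next to each other were 5 pairs. SRUG_03322 and SRUG_03323 on contig 3 (4890 and 4792 nt) had a mean FPKM of 24.7 ± 5.64 and 30.7 ± 3.15 (SD, n = 3). SRUG_05942 and SRUG_05943 on contig 6 (5233 and 6573 nt) had 23.3 ± 1.88 and 4.44 ± 2.23. SRUG_09529 and SRUG_09530 on contig 11 (4557 and 5336 nt) had 25.0 ± 3.39 and 128 ± 18.3. The first pair had similar levels, while the second and the third differed by 5.24 and 5.13 times.

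SRUG_10511 and SRUG_10512 on contig 13 (4933 and 4975 nt) had a mean FPKM of 68.2 ± 9.08 and 31.0 ± 1.36, and SRUG_11165 and SRUG_11166 on contig 16 (5194 and 6056 nt) had 20.6 ± 2.20 and 4.77 ± 1.88. In 4 of the 5 pairs the values of the partners did not overlap between libraries. How often this holds for other neighbouring models was not counted, so whether it is particular to these pairs cannot be said. The lower partners on contigs 6 and 16 were both raised in library 2, and the higher partners were not. Whether a pair arose from copies of a gene was not examined, and reads shared by similar copies may be split between them in the counts.

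The models beside the members were mostly of usual length. The 385 neighbours that are not members had a median FPKM of 30.1, between that of all models (23.9) and that of the eligible ones (40.7), and the 312 of them that were eligible had a median length of 1363 nt, near the median of all eligible models. In 164 of 396 pairs of a member and its neighbour the member was higher. Spearman's rho of the levels over these pairs was 0.0968, over models that share libraries and contigs.

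Members were found near contig ends in a few cases. Among the 10 outermost models of either end lay 8 of the 200, compared with 1.68% of the eligible models. They were SRUG_04733, the outermost model of contig 4 and the lowest member of all, SRUG_09263, the second model of contig 11 and the second highest member, and SRUG_11063 (contig 15), SRUG_05746 (contig 5), SRUG_10823 (contig 14), SRUG_10841 (contig 15), SRUG_08526 (contig 10) and SRUG_09863 (contig 11), with a mean FPKM of 94.9, 19.2, 22.4, 8.78, 49.5 and 48.2. These 8 were chosen for their place after the values had been seen, and they covered the range of the members from the lowest to the second highest.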

How the data were processed

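Mycelium RNA of 3 libraries was measured as counts and FPKM per gene model. The authors deposited whole-number counts without normalization for 11750 models, in a gene and a transcript table that differed in 0 cells, and FPKM values in another pair of tables that also differed in 0 cells. The submitters' processing notes name fastp, HISAT2 and StringTie. The paper gives a version of HISAT2 for mapping in gene prediction, and no source used here gives the other versions, the use of strand or how reads shared between models were counted. Contig and model number come from the identifiers.

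The ratio of count to FPKM was averaged over libraries among models with at least 200 counts in each. CPM used TMM factors of edgeR 4.0.16 (R 4.3.3). Values are means with the SD over libraries. With 1 condition no test was made. Models named are the 10 longest, the 5 at each end of FPKM, of CV and of the library 2 ratio, neighbouring members, those at the threshold and any member named in the paper's text. The members near contig ends, SRUG_02402, the quartile groups by FPKM, the classes of length and the library 2 ratio were chosen after values were seen. Members and lists were chosen with earlier results of these data known. The length step and the spread were tested on simulated data. Alternatives were other minimum counts, other scalings (DESeq2 1.42.0 size factors, deposited FPKM, library total), a fold of 2, and each library left out. Python 3.11.15, pandas 2.3.3, NumPy 2.4.6, SciPy 1.17.1 and matplotlib 3.10.9 were used.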

Additional observations from a re-analysis of the deposited data

How the results depend on the processing

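Of 111 values recomputed under alternatives, 82 were called the same, 29 moved and 0 reversed. The members kept with the second pair of tables could not change, since those tables held the same values. Only rho and the library 2 ratio could be called reversed, because the other values cannot change sign. A value was the same within the SD between libraries, or within 1.5 times for a count. The number of members kept was judged as a count, which is a loose limit. The length was judged by 0.5 nt. Shares raised in library 2 by class of length were judged by a binomial interval over models. This interval takes models as independent although they share the same 3 libraries, so it does not measure the spread between libraries. It is wide for the class above 4000 nt, with 24 models, where being called the same says little. With a minimum of 1000 counts, 182 of the 200 members were kept, the median FPKM was 25.9, its percentile 52.1, rho of length and FPKM −0.32, neighbouring pairs 3, the share of counts 4.12% and of summed FPKM 0.825%. Leaving out 1 library in turn, with the members chosen again, gave a median CV of 0.0982 to 0.153. Ranked among the eligible models, 55 members were above the median FPKM and the median percentiles were 27.5 by FPKM and 78.1 by CPM. Of the 122 members above the common FPKM floor, 30 were above the median of the models that passed it. Their median percentile by FPKM among those models was 29.4. Over all eligible models rho was −0.36. With the deposited FPKM or the library total, 2 members were raised in library 3, 13 lowered in library 1 and 0 lowered in library 3, beside 2.82%, 6.24% and 1.12% of eligible models with the FPKM and 2.86%, 6.20% and 1.10% with the total. At a fold of 2, 1, 7 and 0 members were raised in libraries 1, 2 and 3 (eligible 1.09%, 1.93% and 0.531%), and 1, 1 and 0 lowered (eligible 0.398%, 1.53% and 0.157%). No paired analysis was possible because all libraries belong to 1 group. Fold changes between conditions cannot be had from these data, and 3 libraries fix a CV only loosely.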
